A study of Mus musculus with 4 samples.

Results

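Immediate early genes are switched on within minutes of a stimulus, without new protein synthesis, and their mRNAs are short-lived. In neurons the stimulus is calcium entry during synaptic activity, which acts through the kinases CaMK and ERK on the transcription factors CREB, SRF and MEF2. Many of these genes also answer growth factors and stress in cells that are not neurons. The 10 genes described here were given by symbol as activity-dependent early genes, and all 10 were found among the 19844 genes listed for every library. They are Fos, Fosb and Junb, which encode AP-1 subunits, the zinc-finger factors Egr1 and Egr2, the neuronal factor Npas4, the nuclear receptor Nr4a1, the synaptic gene Arc, the nuclear protein gene Ier2 and the phosphatase gene Dusp1.

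The RNA came from mouse embryonic cortex (C57BL/6) at E16.5 and was sequenced in 4 libraries, 2 from wild-type embryos (WT replicates 1 and 4) and 2 labelled as H2A.Z.2 conditional knockouts (cKO replicates 1 and 2). H2A.Z.2 is a variant of the histone H2A, encoded by H2afv, and by its title the series concerns neural progenitor cells, H2A.Z.2 and microglia. The labels name neither the Cre driver nor the deleted exons, and nothing tells whether each library is a different embryo or litter, so p-values measure only the spread between these libraries. The files list between 16625181 and 17940659 reads per library. Scaled to library size as CPM, reads of H2afv stood at 136 and 222 in WT replicates 1 and 4 and at 128 and 127 in cKO replicates 1 and 2 (log2 fold change -0.49, SE 0.23, edgeR adjusted p = 0.956). Since the targeted gene hardly separates WT replicate 1 from the other group, the latter are called the libraries labelled cKO.

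The cortical markers Emx1, Neurod6, Tbr1, Fezf2, Lhx2, Pax6 and Eomes were all present in every library, the lowest value being that of Pax6 in cKO replicate 1 at 51.2 CPM. WT replicate 4 stood apart in its cell-cycle content, with a summed level of 10 dividing progenitor markers of 1420 CPM against 651 to 782 CPM in the other 3. It also had the lowest summed level of 12 neuron markers, 6686 CPM against 8329 to 9822 CPM. Choroid plexus markers reached 508 CPM in cKO replicate 1 and 11.9 to 56.5 CPM elsewhere. In bulk tissue, fewer cells of a type and less RNA per cell cannot be told apart.

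Promoters of early genes are known for cyclic AMP response elements, bound by CREB, and for CArG boxes, bound by SRF. The RefSeq promoter table (GRCm38.p6, 250 bases before to 50 bases after each start) held 7 of the genes in 11 windows: Fos, Fosb, Junb, Egr2, Npas4, Nr4a1 and Dusp1. Those of Fos, Fosb, Npas4 and Dusp1 are shown as examples with unlike values, and none of these genes was called between the groups. Fos and Fosb, which encode alternative partners of JUN proteins, had unlike library profiles at few reads (11 to 21 and 2 to 19 per library). Npas4 varied inside both groups, and Dusp1 was the most abundant. Capitals mark the half-site TGACG, or its reverse complement CGTCA.
Fos, chr12:85473640-85473939, plus strand: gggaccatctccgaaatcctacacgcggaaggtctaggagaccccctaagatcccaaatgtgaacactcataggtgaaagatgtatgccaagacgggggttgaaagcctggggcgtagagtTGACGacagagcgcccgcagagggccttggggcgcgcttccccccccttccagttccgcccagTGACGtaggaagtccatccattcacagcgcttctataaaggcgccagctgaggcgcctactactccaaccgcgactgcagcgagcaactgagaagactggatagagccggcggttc
Fosb, chr7:19309996-19310295, minus strand: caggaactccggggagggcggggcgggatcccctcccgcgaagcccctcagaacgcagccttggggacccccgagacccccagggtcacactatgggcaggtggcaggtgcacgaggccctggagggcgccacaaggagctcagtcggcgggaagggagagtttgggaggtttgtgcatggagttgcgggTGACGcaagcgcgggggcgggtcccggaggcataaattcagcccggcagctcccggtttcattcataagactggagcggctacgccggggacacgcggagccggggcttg
Npas4, chr19:4989922-4990221, minus strand: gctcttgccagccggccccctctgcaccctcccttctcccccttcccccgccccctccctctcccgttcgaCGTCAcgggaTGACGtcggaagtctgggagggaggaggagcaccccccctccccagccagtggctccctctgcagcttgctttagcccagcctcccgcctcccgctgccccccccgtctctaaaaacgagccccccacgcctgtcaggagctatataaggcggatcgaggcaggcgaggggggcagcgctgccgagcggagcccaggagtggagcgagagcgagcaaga
Dusp1, chr17:26508423-26508722, minus strand: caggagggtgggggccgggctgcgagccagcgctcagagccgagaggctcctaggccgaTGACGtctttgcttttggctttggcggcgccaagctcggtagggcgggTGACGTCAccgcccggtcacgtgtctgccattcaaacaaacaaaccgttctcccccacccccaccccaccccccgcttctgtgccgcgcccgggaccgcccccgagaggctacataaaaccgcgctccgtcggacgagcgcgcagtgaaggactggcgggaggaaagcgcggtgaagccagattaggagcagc

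Every one of the 7 genes had the half-site TGACG on either strand in at least 1 window. Of all 27025 genes in the table, 23.0% had it in a window. Of the 11 windows, 5 belong to Egr2 and some of these overlap, so genes and not windows are counted. The member windows were richer in G and C than the rest (median 65.3% against 52.7%), and this half-site holds a CG step. In Fos the matches began 129 and 66 bases before the start, and in Fosb the single match began 60 bases before it. Nr4a1 held 4 matches. The full element TGACGTCA, which contains the half-site once on each strand, was found in Dusp1 alone, 143 bases before the start, and in 2.03% of all genes. In Npas4 both matches lay in a stretch that began 179 bases before the start.

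Other motifs were less common among them. A CArG box was present in 4 of the 5 Egr2 windows and in no other gene of the 7, against 1.81% of all genes. Some of these windows overlap and hold the same box. The TATA box TATAAA was found in Fos, beginning 33 bases before the start, and in Junb, beginning 1 base after it (15.7% of all genes). An EGR site, GCGGGGGCG or GCGTGGGCG on either strand, was found in Fosb and Nr4a1 (3.93% of all genes), and the AP-1 site TGANTCA in none of the 7 (8.97% of all genes). These are matches of letters in short windows and say nothing of binding in this tissue.

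The 10 genes spanned a wide range of levels in the embryonic cortex. Per kilobase of exon, the mean over the libraries was highest for Dusp1 at 18.9 CPM per kb, followed by Ier2 at 12.5 CPM per kb. A middle group held Nr4a1 (4.41 CPM per kb), Junb (3.76), Npas4 (3.43), Arc (2.03) and Egr1 (1.12). Fos was at 0.431 CPM per kb, Fosb at 0.141 and Egr2 at 0.0382. Among 19804 genes with an exon length, Dusp1 ranked at the 79.7th percentile, Npas4 at the 49.1st, Fos at the 21.9th and Egr2 at the 1.16th. The ranges over the 4 libraries overlapped between neighbours in this order except between Ier2 and Nr4a1, between Egr1 and Fos, and between Fos and Fosb.

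**Figure D1:**
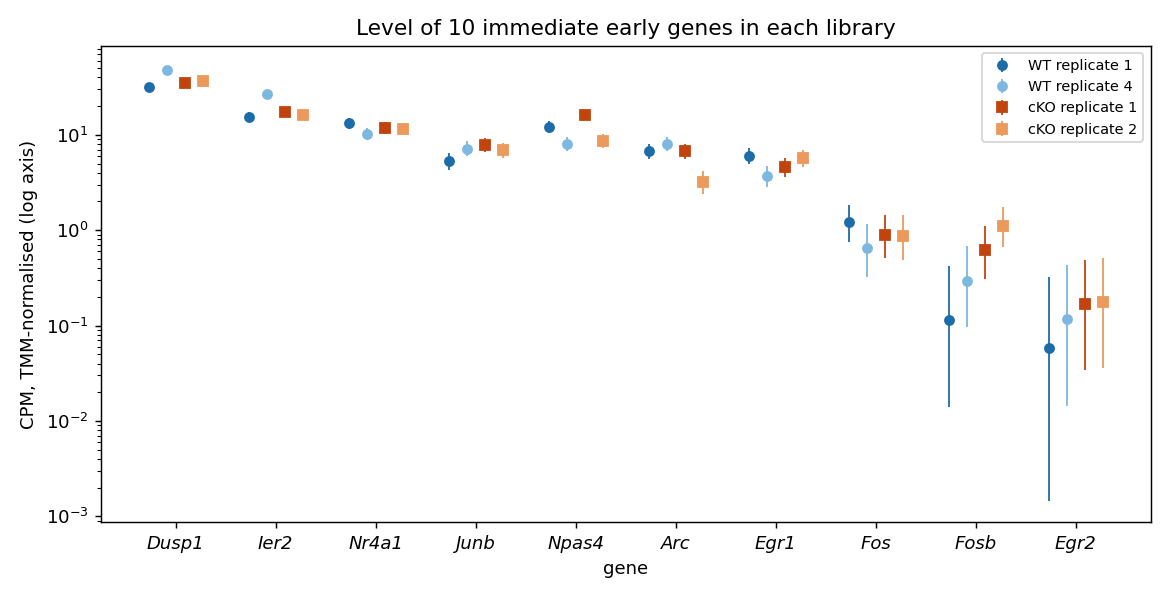
TMM-normalised CPM of the 10 genes in each library on a log axis, ordered by level per kilobase; circles are WT and squares are the libraries labelled cKO, and bars are exact 95% Poisson intervals that cover counting error only. Dusp1 and Ier2 lie above 15 CPM in every library, and Fosb and Egr2 rest on at most 19 and 3 reads.

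Between the groups, none of these genes passed the test. The filter on low counts (10 reads, here 0.575 CPM, in at least 2 libraries) admitted 9 of the 10, and Egr2 failed it. With edgeR's quasi-likelihood test, 0 of the 9 had an adjusted p under 0.05, and the share of all 16269 genes tested that did was 0%. At an unadjusted p under 0.05 it was 1 of the 9, Fosb, against 1.67% of all genes tested (272 genes). DESeq2 also called 0 genes, with 401 at an unadjusted p under 0.05. Of the 9, 4 were higher and 5 lower in the libraries labelled cKO, with a median log2 fold change of -0.02, against -0.01 over all genes tested. In 1 of the 9, again Fosb, the 2 groups did not overlap, while they did not overlap in 31.6% of all genes tested. Fosb passed the filter only through the 2 libraries labelled cKO, so neither its unadjusted p nor its lack of overlap is independent evidence of a difference. An exact permutation test of 2 libraries against 2 cannot go below a two-sided p of 0.333.

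The AP-1 subunits come first. Fos (chromosome 12, 85473890 to 85477273, plus strand) encodes the founding FOS protein, which binds DNA only as a dimer with a JUN protein. It had 21 reads (1.21 CPM) in WT replicate 1 and 11 (0.650 CPM) in WT replicate 4, against 16 (0.895 CPM) and 15 (0.875 CPM) in cKO replicates 1 and 2. Both libraries labelled cKO thus lay between the WT ones. The means were 0.931 ± 0.397 CPM in WT and 0.885 ± 0.0140 CPM in the libraries labelled cKO (SD, n = 2 each), and edgeR put the log2 fold change at -0.07 with an SE of 0.51 and an adjusted p of 0.984. Its 95% confidence interval ran from -1.31 to 1.16. At this depth a change of 2-fold in either direction lies inside that interval.

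Fosb (chromosome 7, 19302696 to 19310051, minus strand) encodes a relative of FOS whose truncated form, ΔFOSB, is known to accumulate in adult neurons after repeated stimulation. It had 2 reads (0.115 CPM) in WT replicate 1 and 5 (0.296 CPM) in WT replicate 4, against 11 (0.615 CPM) and 19 (1.11 CPM) in cKO replicates 1 and 2. Both libraries labelled cKO lay above both WT libraries. The means were 0.205 ± 0.127 CPM and 0.862 ± 0.349 CPM (SD, n = 2 each), and the log2 fold change was 2.03 with an SE of 0.70, its 95% confidence interval running from 0.34 to 3.72. With edgeR the unadjusted p was 0.0254 and the adjusted p was 0.956, so Fosb was not called. It passed the low-count filter only through the 2 libraries labelled cKO. The filter accepts any 2 libraries, but with both WT libraries below it a tested Fosb had to be higher in those labelled cKO.

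Single pairs of libraries show how much of the Fosb difference rests on few reads. The ratio of cKO replicate 2 to WT replicate 1 was 9.61 with a 95% counting interval of 2.32 to 85.0, and that of cKO replicate 2 to WT replicate 4 was 3.75 (1.35 to 12.8). The ratio of cKO replicate 1 to WT replicate 1 was 5.33 (1.16 to 49.5). Between cKO replicate 1 and WT replicate 4 the ratio was 2.08 with an interval of 0.667 to 7.64, which includes 1. The share of Fosb among the reads of Fos and Fosb does not depend on how libraries are scaled. It was 8.70% of 23 reads in WT replicate 1 (95% Clopper-Pearson interval 1.07% to 28.0%) and 31.2% of 16 reads in WT replicate 4 (11.02% to 58.7%). In cKO replicate 1 it was 40.7% of 27 reads (22.4% to 61.2%), and in cKO replicate 2 it was 55.9% of 34 reads (37.9% to 72.8%). The group means were 20.0 ± 15.9% and 48.3 ± 10.7% (SD, n = 2 each). They are given as a description, since an exact permutation test of 2 libraries against 2 cannot go below a two-sided p of 0.333. The interval of WT replicate 4 overlaps those of both libraries labelled cKO. That of WT replicate 1 overlaps the interval of cKO replicate 1 but not that of cKO replicate 2. All these intervals cover counting error in single libraries and not the spread between libraries. Because Fosb passed the low-count filter only through the libraries labelled cKO, they are not independent evidence of a difference between groups.

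Junb (chromosome 8, 84974484 to 84978718, minus strand) encodes a JUN family subunit. It stood at 5.31 CPM in WT replicate 1 and 7.15 CPM in WT replicate 4, against 7.77 and 6.94 CPM in cKO replicates 1 and 2. WT replicate 1 was the lowest, and the groups overlapped (log2 fold change 0.24, SE 0.28, edgeR adjusted p = 0.956). The last 351 bases of Junb overlap the 3′ end of Prdx2, a peroxiredoxin gene on the opposite strand with 9318 to 10344 reads per library. The sources used here do not state if reads were counted by strand, so reads in the overlap cannot be told apart.

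Among the subunits, JUN family mRNAs were several-fold above those of the FOS family. Summed per kilobase over Jun, Junb and Jund, the JUN family was at 34.6 CPM per kb in WT replicate 1, 47.1 in WT replicate 4, 40.1 in cKO replicate 1 and 39.4 in cKO replicate 2. The FOS family (Fos, Fosb, Fosl1 and Fosl2) summed to 8.89, 7.66, 9.24 and 10.5 CPM per kb in the same libraries. The ratio of JUN to FOS was 6.15 in WT replicate 4 and 3.75 to 4.34 in the other 3. Jun itself was at 92.1 CPM in WT replicate 4 and between 50.6 and 56.8 CPM elsewhere.

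The zinc-finger factors differed in level. Egr1 (chromosome 18, 34859823 to 34864984, plus strand) encodes a factor widely used as a readout of neuronal activity. It was at 6.06 CPM in WT replicate 1 and 3.66 CPM in WT replicate 4, against 4.59 and 5.72 CPM in cKO replicates 1 and 2. Both libraries labelled cKO lay between the WT ones, as for Fos (log2 fold change 0.08, SE 0.36, edgeR adjusted p = 0.982). Egr2 (chromosome 10, 67535475 to 67542188, plus strand) is known for its part in hindbrain segmentation and Schwann cell myelination. It had 1 and 2 reads in WT replicates 1 and 4 and 3 reads in each library labelled cKO. These counts are at or under a floor of 3 reads per library, so no fold change is given.

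Nr4a1 (chromosome 15, 101266846 to 101274792, plus strand), which encodes an orphan nuclear receptor induced by calcium and growth factors, had the smallest ratio of highest to lowest library among the 9 tested genes, 1.28. Its level was 13.2 CPM in WT replicate 1, 10.3 CPM in WT replicate 4, and 11.8 and 11.4 CPM in cKO replicates 1 and 2. The libraries labelled cKO again fell between the WT libraries. By edgeR the log2 fold change was -0.02, with an SE of 0.23 and an adjusted p of 0.993, and its 95% confidence interval ran from -0.58 to 0.55.

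Npas4 and Arc are the genes of the set most closely tied to neurons, and the libraries labelled cKO differed most from each other in these. Npas4 (chromosome 19, 4984355 to 4989971, minus strand) encodes a factor that in neurons is induced by calcium entry and is known for its part in inhibitory synapse formation. It had 210 reads (12.1 CPM) in WT replicate 1, 137 (8.10 CPM) in WT replicate 4, and 287 (16.1 CPM) and 148 (8.63 CPM) in cKO replicates 1 and 2. A high and a low library were thus present in each group. The ratio of the higher to the lower library was 1.86 inside the group labelled cKO (95% counting interval 1.52 to 2.28) and 1.50 inside WT (1.20 to 1.87). The log2 fold change between groups was 0.29 (SE 0.37, edgeR adjusted p = 0.956). In cKO replicate 1, where Npas4 was highest, choroid plexus markers were highest too, and neuron markers had a summed level of 8512 CPM. Their part in the difference was not tested.

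Arc (chromosome 15, 74669083 to 74672570, minus strand) encodes a protein of dendrites that takes AMPA receptors off the synaptic surface. It had 117 reads (6.75 CPM) in WT replicate 1, 136 (8.04 CPM) in WT replicate 4 and 121 (6.77 CPM) in cKO replicate 1. In cKO replicate 2 it had 55 reads (3.21 CPM), the lowest of the 4. The group means were 7.39 ± 0.912 CPM and 4.99 ± 2.52 CPM (SD, n = 2 each). The log2 fold change by edgeR was -0.57 with an SE of 0.40 and an adjusted p of 0.956, and its 95% confidence interval ran from -1.53 to 0.40. Since cKO replicate 1 was level with WT replicate 1 (ratio 1.00, 95% counting interval 0.771 to 1.30), the lower mean came from 1 library. Leaving out cKO replicate 2 moved it to -0.13, and leaving out cKO replicate 1 moved it to -1.20. The lowest Arc came with the highest summed level of neuron markers, 9822 CPM, whose part in the difference was not tested.

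**Figure D2:**
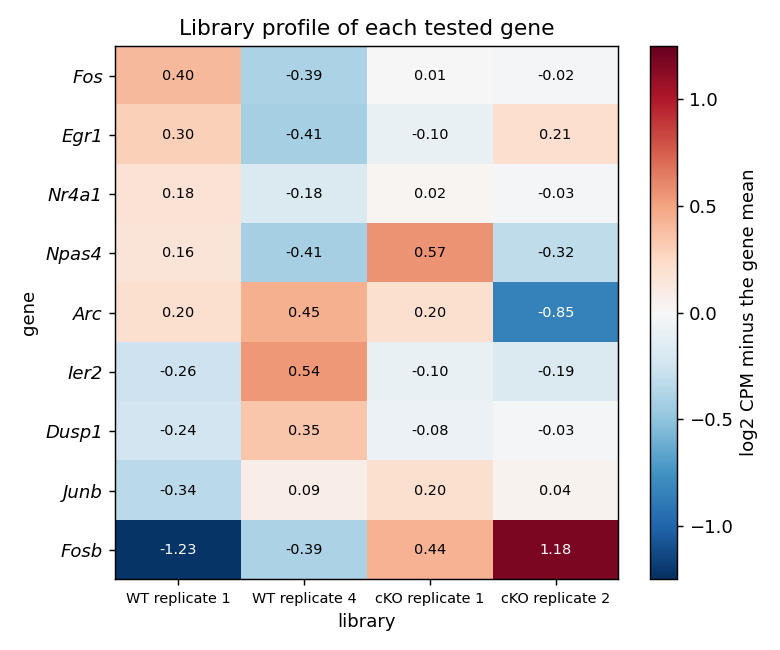
Log2 CPM of each tested gene minus its mean over the 4 libraries, in each library. Fos, Egr1 and Nr4a1 are highest in WT replicate 1 and lowest in WT replicate 4, Ier2 and Dusp1 are highest in WT replicate 4, and Arc is lowest in cKO replicate 2 at -0.85.

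Ier2 and Dusp1 shared another profile, in which WT replicate 4 was high and the other 3 libraries were close together. Ier2 (chromosome 8, 84661331 to 84662852, minus strand) encodes a small nuclear protein induced early by growth factors. It was at 15.5 CPM in WT replicate 1, 27.1 CPM in WT replicate 4, and 17.4 and 16.3 CPM in cKO replicates 1 and 2. The log2 fold change was -0.34 (SE 0.29, edgeR adjusted p = 0.956). Leaving out WT replicate 4 moved it to 0.13. Without WT replicate 1, Ier2 was at -0.68 with an edgeR adjusted p of 0.0411, in a fit with a lone WT library that called 1849 of 16920 genes. In the other 11 alternatives its adjusted p was at least 0.938.

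Dusp1 (chromosome 17, 26505590 to 26508519, minus strand) encodes a nuclear phosphatase that switches off p38, JNK and ERK kinases. It was at 31.5 CPM in WT replicate 1, 47.3 CPM in WT replicate 4, and 35.3 and 36.5 CPM in cKO replicates 1 and 2. The ratio of the WT libraries was 1.50 (95% counting interval 1.35 to 1.68), whereas that of the libraries labelled cKO was 1.03 (0.923 to 1.16). The log2 fold change was -0.13 (SE 0.22, edgeR adjusted p = 0.965), and 0.20 without WT replicate 4. Dividing progenitor markers were highest in WT replicate 4 as well, in 9 of 10 genes. Their part in the levels of Ier2 and Dusp1 was not tested.

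The genes did not share a single library profile. Among the 9 tested, the highest library was WT replicate 1 for 3, WT replicate 4 for 3, cKO replicate 1 for 2 and cKO replicate 2 for 1. Over all genes tested these shares were 17.5%, 37.6%, 22.7% and 22.1%. The mean profile of the 9 was at -0.09, -0.04, 0.13 and 0.00 on the log2 scale in WT replicates 1 and 4 and cKO replicates 1 and 2. The genes whose profiles lay nearest to this mean, by Euclidean distance over the 4 libraries, were Trim41 (0.00983), Hrh3 (0.0139), Zmynd8 (0.0143), Ap5s1 (0.0181) and Tm4sf1 (0.0198). That profile depended on Fosb. Without it the mean profile was 0.05, 0.00, 0.09 and -0.15, and 0 of the 5 nearest genes were shared. With 4 libraries, many genes lie close to any profile.

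The spread inside the groups was compared with the difference between them. In 8 of the 9 genes the larger gap between 2 libraries of a group exceeded the difference between group means. So it did in 83.5% of all genes tested, a share near that of the 9. Fosb was the exception, and it passed the low-count filter only through the libraries labelled cKO. The gap between the WT libraries exceeded the median over all genes tested (0.30 on the log2 scale) in 8 of the 9, Arc being the exception. Inside the group labelled cKO the median was 0.18, and 4 of the 9 exceeded it: Arc at 1.05, Npas4 at 0.89, Fosb at 0.74 and Egr1 at 0.31. Arc and Npas4 lay at the 96.5th and 94.7th percentiles of all genes tested there. Fos, Nr4a1, Dusp1 and Ier2 differed by 0.03 to 0.09. Gaps of genes with few reads, such as Fos and Fosb, include more counting error than those of Dusp1.

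**Figure D3:**
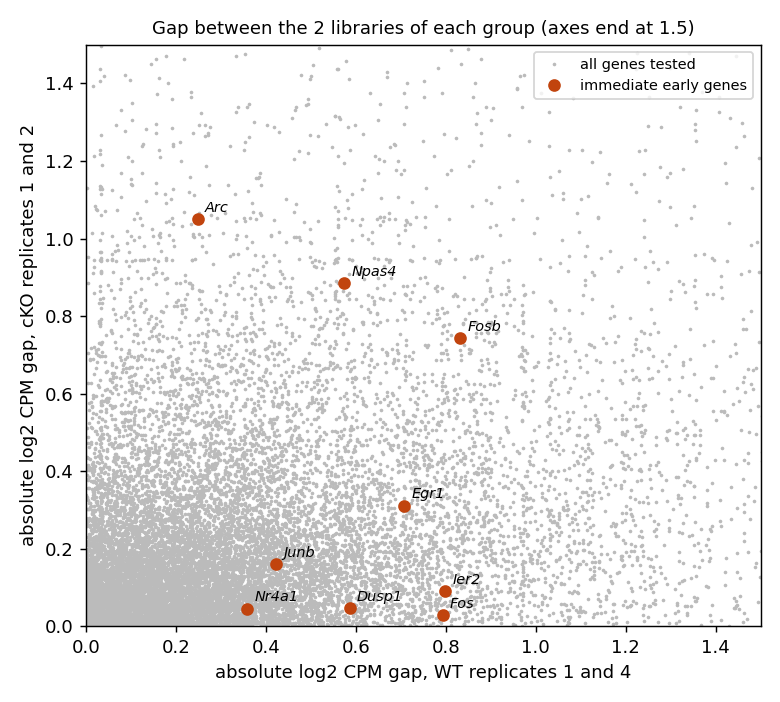
Absolute difference of log2 CPM between the WT libraries (horizontal) and between the libraries labelled cKO (vertical), for all genes tested (grey) and the 9 early genes (orange); genes beyond 1.5 are not drawn. Arc (0.25 and 1.05) and Npas4 (0.57 and 0.89) lie high, and Ier2 (0.80 and 0.09) and Fos (0.79 and 0.03) lie far to the right.

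The authors' deposited tables each set 1 library against 1 and mark genes with an adjusted p under 0.05 and an absolute log2 fold change above 1. The authors' deposited table of cKO replicate 2 over WT replicate 1 marked 2 of the 10, Fosb as higher (log2 fold change 3.23) and Arc as lower (-1.11), and 1.62% of its 21140 genes. The authors' deposited table of cKO replicate 1 over WT replicate 4 marked 0 of the 10, against 8.72% of its 21323 genes. For Npas4 the authors' deposited tables went opposite ways, with log2 fold changes of 0.96 in cKO replicate 1 over WT replicate 4 and -0.52 in the other. Their adjusted p-values in the authors' deposited tables, 1.90e-10 and 0.00837, compare single libraries and hold no replicate spread. Leaving out Egr2, which was at or under the floor, Junb, Fosb and Arc had the same sign in both of the authors' deposited tables, Arc at -0.28 and -1.11.

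**Figure D4:**
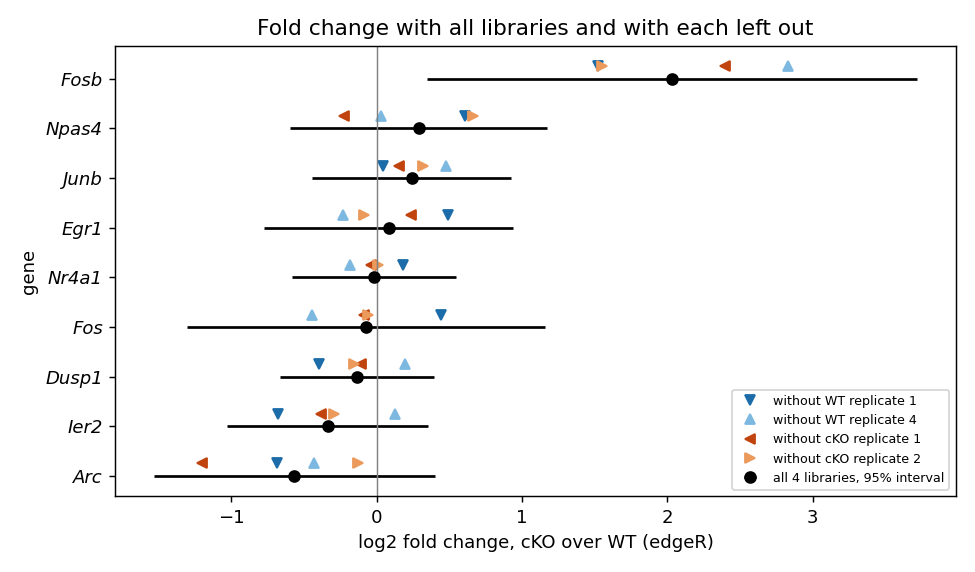
Log2 fold change of the libraries labelled cKO over WT for the 9 tested genes (black circles, with 95% confidence intervals from edgeR) and with each library left out in turn (coloured triangles). The interval of Fosb, 0.34 to 3.72, does not include 0 before adjustment. Fosb passed the low-count filter only through the libraries labelled cKO. With both WT libraries below the filter, a tested Fosb had to be higher in those labelled cKO. The triangles of Fos, Egr1, Npas4, Nr4a1, Ier2 and Dusp1 fall on both sides of 0.

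Relatives of the same families were measured beside them. Of 13 other AP-1, EGR and NR4A genes, 12 were tested, 10 had higher and 2 lower values in the libraries labelled cKO, and 0 passed in either direction. Their median log2 fold change was 0.21, against -0.01 over all genes tested, of which 48.1% were higher. Without a library the number higher was 8 to 10 of 12. In the same libraries neuron markers were higher in 11 of 12 genes (median 0.28) and dividing progenitor markers in 0 of 10 (median -0.66). In both lists 0 passed the test, and WT replicate 4 stood apart from WT replicate 1. Progenitor sums were 782 and 1420 CPM in WT replicates 1 and 4, against 710 and 651 CPM in cKO replicates 1 and 2. Neuron sums were 8329 and 6686 CPM against 8512 and 9822 CPM. The part of these cell types in the values of the relatives was not tested. Jund, an AP-1 gene expressed without stimulation, was at 26.4 and 23.8 CPM in WT replicates 1 and 4 and at 30.0 and 31.0 CPM in cKO replicates 1 and 2 (log2 fold change 0.28, SE 0.16, edgeR adjusted p = 0.956). Fosl2, an AP-1 subunit, was at 32.5 and 19.7 CPM against 31.3 and 36.3 CPM. Atf3, a stress-induced factor, was at 0.462 and 0.414 CPM against 0.671 and 0.817 CPM.

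The other early response genes numbered 36, of which 35 were tested. Higher values were seen for 18 and lower for 17 (median 0.00), and 0 passed the test. Without WT replicate 4 the number higher was 25. Btg2, an antiproliferative gene known to mark cortical progenitors that will produce neurons, was at 59.7 and 86.3 CPM in WT replicates 1 and 4 and at 47.3 and 45.4 CPM in cKO replicates 1 and 2 (log2 fold change -0.66, SE 0.20, edgeR adjusted p = 0.956). The dividing progenitor markers Eomes and Neurog2 had log2 fold changes of -0.60 and -0.78, and their part in the value of Btg2 was not tested. Ier3, another early response gene, was at 1.62 and 1.83 CPM against 2.57 and 3.79 CPM.

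Late activity-dependent genes, which in neurons follow the early factors, were tested in 19 of 20, with 11 higher, 8 lower and 0 past the test (median 0.19). Their summed level was 235 CPM in WT replicate 4 and 316 to 332 CPM in the other 3. Npy, an interneuron peptide gene, was at 56.0 CPM in WT replicate 1, 16.1 CPM in WT replicate 4, and 62.5 and 84.9 CPM in cKO replicates 1 and 2 (log2 fold change 1.03, SE 0.52, edgeR adjusted p = 0.956). Inhba, an activin subunit gene, was at 8.13 and 2.96 CPM against 7.16 and 10.5 CPM. WT replicate 4 was the lowest for both, as it was for the neuron markers, whose part in this was not tested.

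Upstream of the early genes, all 44 listed kinases, coactivators and transcription factors were tested, with 25 higher, 19 lower and 0 past the test (median 0.05). Crtc1, a CREB coactivator, was at 227 and 181 CPM in WT replicates 1 and 4 and at 269 and 259 CPM in cKO replicates 1 and 2 (log2 fold change 0.37, SE 0.15, edgeR adjusted p = 0.956). Mef2c, an activity-regulated factor of cortical neurons, was at 180 and 88.1 CPM against 171 and 248 CPM. Feedback inhibitors of MAP kinases, the DUSP, SPRY and SPRED genes other than Dusp1, were higher in 9 and lower in 6 of 15, with 0 past the test (median 0.09). Dusp16, a JNK phosphatase gene, was at 13.3 and 23.7 CPM against 10.7 and 9.51 CPM, and Dusp4, an ERK phosphatase gene, at 44.1 and 102 CPM against 59.4 and 37.5 CPM. WT replicate 4 was the highest for both, as it was for 5 of the 15 against 37.6% of all genes tested. Spry4 and Spry2, inhibitors of growth factor signalling, were at 5.19 and 3.78 CPM against 7.66 and 6.36 CPM and at 12.2 and 13.8 CPM against 15.0 and 17.97 CPM.

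Cells other than neurons and stress can also raise early genes, so their markers are given. Heat shock response genes were higher in 6 and lower in 7 of 13, with 0 past the test (median -0.03). Endothelial and mural markers (14 genes, summed level 275 to 310 CPM) and microglia and macrophage markers (12 genes, 45.6 to 68.2 CPM) had their highest sums in cKO replicate 1. Blood markers (8 genes, 723 to 970 CPM) and meningeal fibroblast markers (10 genes, 25.2 to 85.3 CPM) had theirs in WT replicate 1. The embryonic globin genes Hbb-y and Hba-x went another way. Hbb-y was at 72.4 CPM in WT replicate 4 and 0.503 to 2.02 CPM in the other 3. Hba-x was at 14.8 CPM in WT replicate 4 and 0.692 to 1.23 CPM in the other 3. In none of these 5 lists was a measured gene at 0 in any library. Only genes listed for every library were counted as measured, which held for 8 of the 9 blood markers. The part of these cells in the levels of the early genes was not tested.

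**Figure D5:**
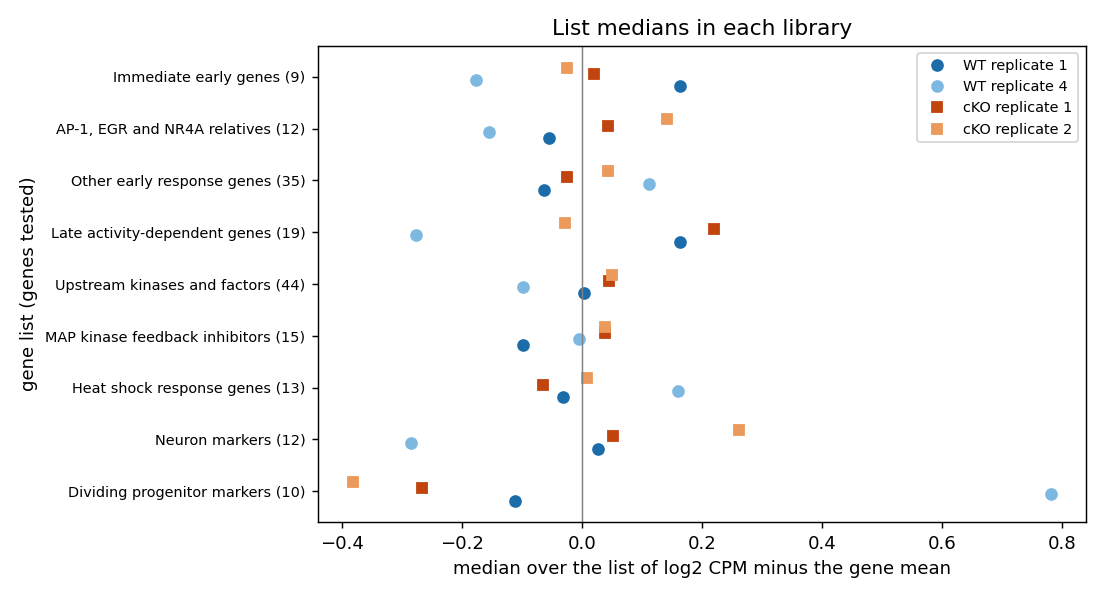
Median over each gene list of log2 CPM minus the gene mean, per library, with the number of genes tested in brackets. Dividing progenitor markers reach 0.78 in WT replicate 4, the early gene medians lie between -0.18 and 0.16, and the AP-1, EGR and NR4A relatives lie at 0.04 and 0.14 in the libraries labelled cKO.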

How the data were processed

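Total RNA from E16.5 cortex was sequenced in 4 libraries. Bowtie2 2.2.3, TopHat2 2.0.12, HTSeq 0.6.0 and mm9 are named in the submitters' processing notes, but positions in the deposited tables matched GENCODE M21 on GRCm38 (91.6% of 19805 genes had the same start and end), and coordinates are given on GRCm38. The authors deposited 2 tables, each with raw read counts per gene, CPM (reads scaled to library size), a fold change (ratio), its log2 and p-values for 1 library against 1, per the file headers. The deposited CPM were counts divided by the total of the library, with 0.5 reads in place of 0.

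Counts were joined by gene identifier over the 19844 genes in both tables (2775 were in 1 table only) in Python 3.11.15. After TMM scaling and a low-count filter (filterByExpr, minimum count 10), the quasi-likelihood test of edgeR 4.0.16 (R 4.3.3) was run two-sided, with Benjamini-Hochberg adjustment over all genes tested. This left 16269 genes and 2 residual degrees of freedom. The code was tested on simulated data with 2-fold and 4-fold changes in 100 genes each and a common spread for all genes. Of these, 37% and 95% were recovered, with 9 false calls, so most simulated 2-fold changes were missed. DESeq2 1.42.0 was an alternative. CPM in the text are TMM-normalised, log2 CPM used a prior count of 2, and levels per kilobase used exons of protein-coding transcripts inside the deposited gene position. Intervals of CPM, of ratios between single libraries and of the Fosb share cover counting error only. Confidence intervals of log2 fold changes come from the edgeR fit and include the spread between libraries. Depth was 16625181 to 17940659 reads.

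The members and lists were chosen with earlier results of these data known. Named genes are the 10 early genes, H2afv, genes among the 4 of each list with the smallest unadjusted p, and the 5 nearest profiles. Prdx2, Fosl1 and the cortical markers outside this rule were named for overlap, family or list membership. Some listed items are not reported here.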

Additional observations from a re-analysis of the deposited data

How the results depend on the processing

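The count of genes past 5% FDR was 0 with DESeq2, other scalings, other filters, genes of 1 table added and the deposited table as a block. It was 0 to 1849 when 1 library was left out. Without WT replicate 1 it was 1849, without cKO replicate 1 it was 1, and the cause was not tested. With all 4 libraries, 88 genes (39 higher, 49 lower) had an unadjusted edgeR p under 0.05 and an absolute log2 fold change above 1. With the adjusted p, which the authors' deposited tables use, 0 genes passed. No alternative scaling, filter, tool or block changed the direction of an early gene in 70 values. With 1 library left out, the log2 fold change kept its direction for Fosb (1.52 to 2.83), Junb (0.04 to 0.48) and Arc (-1.20 to -0.13). It changed direction for Fos (-0.44 to 0.44), Egr1 (-0.23 to 0.49), Npas4 (-0.23 to 0.67), Nr4a1 (-0.18 to 0.18), Ier2 (-0.68 to 0.13) and Dusp1 (-0.39 to 0.20). The median of the 9 ran from -0.089 to 0.18. These fits hold a lone library in 1 group, which is assumed to vary like the others. Fos and Fosb could not be tested at a mean of at least 1 CPM. Counts of list genes higher without each library, and the mean profile without Fosb, were chosen after seeing the data. No paired analysis was possible because the replicate numbers of the labels match only 1 library of each group. The block named above follows the deposited tables, not replicate numbers. It sets cKO replicate 1 with WT replicate 4 and cKO replicate 2 with WT replicate 1, as the authors did, and gave 920 genes at an unadjusted p under 0.05 against 272. Depth limits Fos, Fosb and Egr2, at 1 to 21 reads per library.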
